A study of Mus musculus with 6 samples.

Results

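The cytosolic ribosomal protein genes encode the proteins of the large and the small ribosomal subunit. They were taken as all genes whose symbol begins with Rpl, Rplp or Rps followed by a number, without the Rps6k kinases and pseudogenes, and with at least 1 probe set that lists that symbol alone. The rule found 47 genes of the 18193 genes with a probe set of their own, and for each the probe set with the highest mean signal was used. It took 20 large subunit genes, 20 small subunit genes, 2 genes of the acidic stalk and 5 paralogs (Rpl22l1, Rpl39l, Rpl3l, Rpl7l1 and Rps27l). In RefSeq, 83 mouse protein-coding genes have a symbol of this form, so the 47 are the part of the family that these probe sets name singly. Tests covered 45 of them. Rpl3l and Rps16 had mean signals of 19.3 and 2.90 and did not pass the filter on dim probe sets. Rps16 is also listed together with other genes by a probe set with a mean of 32275, so 2.90 alone does not show that its transcript was absent.

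Biotin-labelled total RNA was hybridised to 6 Affymetrix arrays, 2 for each group. The groups were Flk1-positive cells, Flk1 KO embryos and WT embryos, all of strain ICR at 8.5 dpc and with 3 to 4 somites, before blood begins to circulate. The study's design text names Flk1+/GFP embryos beside the KO and WT embryos, and says that the embryo proper was dissected. The isolation of the Flk1-positive cells, the KO allele and the number of embryos behind an array are not given in the sources used here. Replicate arrays of a group are not stated to come from separate litters, so the p-values measure the spread between these arrays. Flk1 (Kdr) is the main receptor for vascular endothelial growth factor on endothelial and blood precursors. The Kdr probe set read 3309 and 3328 in Flk1-positive cells, 29.5 and 63.8 in KO embryos and 544 and 546 in WT embryos, so the arrays labelled KO were the lowest. Signals of different probe sets are not levels of transcript relative to each other, and in whole embryos fewer cells of a type and less RNA per cell cannot be told apart.

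A ribosome holds 1 copy of nearly every ribosomal protein, and most of these proteins are unstable until they are assembled with ribosomal RNA. Growing cells keep the transcripts of the family at high and similar levels. Their mRNAs typically begin with an unbroken run of pyrimidines at the cap, the terminal oligopyrimidine tract, through which the mTOR pathway controls their translation. Several of these genes are mutated in Diamond-Blackfan anaemia, an inherited failure of red cell production, and so the family has been studied closely in blood precursors.

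The starts of 9 members are shown because they carry the members that the array results turn on, together with the longest pyrimidine runs and a member with none. Each line gives 30 bases around the RefSeq transcription start on GRCm38.p6, 15 on either side, read on the gene's strand, with the longest run of at least 6 C or T in capitals.
Rps27: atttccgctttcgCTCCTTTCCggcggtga (chr3:90213634-90213663, minus strand)
Rpl27a: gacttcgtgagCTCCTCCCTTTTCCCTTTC (chr7:109519180-109519209, plus strand)
Rpl14: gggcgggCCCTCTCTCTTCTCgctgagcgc (chr9:120571502-120571531, plus strand)
Rpl39l: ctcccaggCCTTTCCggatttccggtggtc (chr16:10170213-10170242, plus strand)
Rpl22l1: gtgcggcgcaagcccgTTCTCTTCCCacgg (chr3:28805493-28805522, plus strand)
Rps10: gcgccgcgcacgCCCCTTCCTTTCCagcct (chr17:27635230-27635259, minus strand)
Rpl35: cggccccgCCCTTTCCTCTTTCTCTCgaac (chr2:39005117-39005146, minus strand)
Rpl7a: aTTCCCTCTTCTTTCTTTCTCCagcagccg (chr2:26910792-26910821, plus strand)
Rpl7l1: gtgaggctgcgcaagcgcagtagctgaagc (chr17:46782642-46782671, minus strand)
The run was 21 bases long in Rpl7a, a large subunit protein, but no run in Rpl7l1 exceeded 2. In Rpl27a it was at least 19, as it reached the end of the window. Of the 42 members in the RefSeq promoter table, 27 (64.3%) held a run of at least 6 pyrimidines in this window, against 32.4% of all 17492 protein-coding genes in it. The share was 57.1% for translation factors listed as having terminal oligopyrimidine mRNAs (14 genes). It was 34.8% for mitochondrial ribosomal proteins (69 genes) and 17.1% for ribosome biogenesis factors (41 genes). A run was counted anywhere in the window, so it need not be the tract at the cap. In Rpl39l, for example, it lay wholly before the start. Over the 300 bases around the start, CCGGAAG, the core bound by ETS and GABP factors, stood on either strand in 47.6% of the members and 12.9% of all genes. The YY1 core AAGATGGC, searched the same way, stood in 9.52% of the members and 3.57% of all genes. TATAAA was found in 14.3% of the members and 14.8% of all genes. These matches describe the letters only.

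Most members gave some of the highest signals on every array. The median member read 28556 and 29895 in Flk1-positive cells, 29015 and 25820 in KO embryos and 27360 and 25212 in WT embryos, where the largest signal of any probe set was between 40308 and 46482. On each array 34 of the 47 lay among the highest 1% of probe sets. A limit of 10000, chosen after the data were seen, separated 35 members above it from 12 below.

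**Figure D1:**
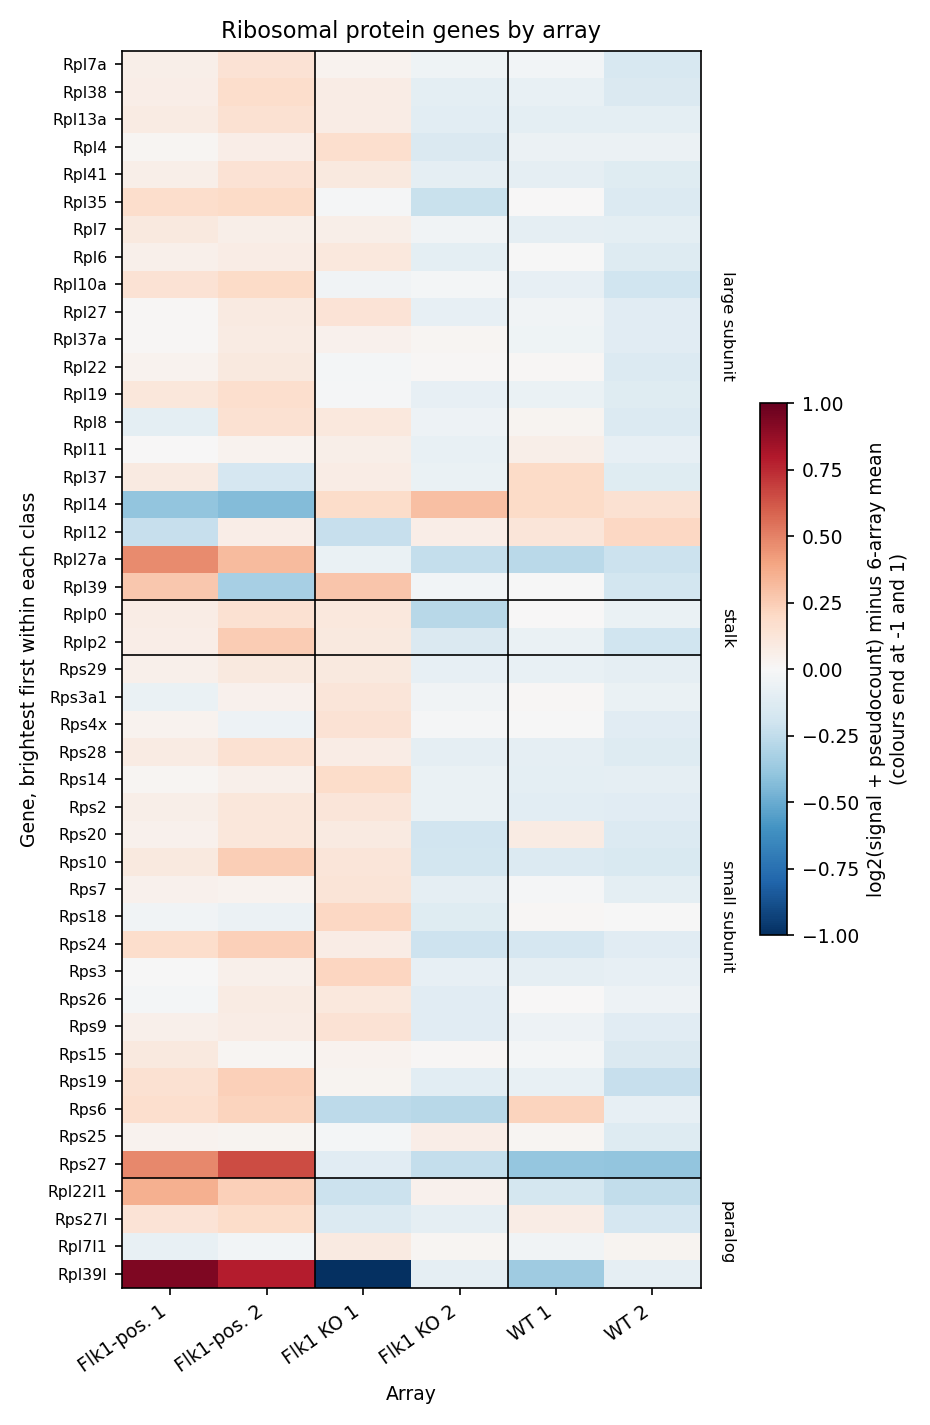
Each row is 1 of the 45 tested members, ordered by class and mean signal, and each column 1 array; colour gives log2(signal + 21.6) minus the mean over the 6 arrays. Most rows are pale in every column, and the strongest colours are those of Rpl39l, Rps27, Rpl27a and Rpl14.

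Ribosomal protein transcripts differed between Flk1-positive cells and WT embryos by small amounts in most genes. Of 45 members tested, 3 passed the threshold (6.67%), while 30.6% of the 14947 genes tested did so. Rps27 and Rpl27a were higher in Flk1-positive cells and Rpl14 was lower. The test was limma's moderated test on log2(signal + 21.6) over all 6 arrays, with a Benjamini-Hochberg adjusted p under 0.05 over all probe sets. Differences lay within 0.5 on the log2 scale for 40 of the 45 members (88.9%) and for 58.6% of all genes. The members' median difference was 0.14, with quartiles of 0.084 and 0.23, and that over all genes was -0.086. Without 1 of the Flk1-positive or WT arrays only Rps27 was called, a count of 1, and the share of all genes called was then 16.1% to 19.0%. Without either KO array the count was 5. By class, the median against WT was 0.13 for the 20 large subunit genes, 0.13 for the 19 small subunit genes, 0.22 for the 2 stalk genes and 0.36 for the 4 paralogs tested.

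RPS27, a zinc-finger protein of the small subunit, has its gene among those mutated in Diamond-Blackfan anaemia. Its probe set read 376 and 425 in Flk1-positive cells, 241 and 219 in KO embryos and 196 and 195 in WT embryos. Both Flk1-positive arrays stood above the other 4, and the KO arrays lay between the other groups. The difference was 0.96 ± 0.13 against WT (SE, limma adjusted p = 0.00606) and 0.75 ± 0.13 against KO (adjusted p = 0.0123). Its call against KO was lost without Flk1-positive replicate 2 (adjusted p = 0.0707).

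RPL27A is a protein of the large subunit. Its signals were 1342 and 1205 in Flk1-positive cells, 920 and 813 in KO embryos and 795 and 829 in WT embryos, with no overlap between the Flk1-positive arrays and the rest. It was higher by 0.63 ± 0.14 against WT (adjusted p = 0.0249) and by 0.54 ± 0.14 against KO (adjusted p = 0.0362). RPL14, another large subunit protein, went the other way. The Rpl14 probe set read 1834 and 1780 in Flk1-positive cells, 2741 and 2976 in KO embryos and 2761 and 2680 in WT embryos, so that both Flk1-positive arrays were below all others. The difference was -0.58 ± 0.13 against WT (adjusted p = 0.0233) and -0.65 ± 0.13 against KO (adjusted p = 0.0147). A fit without 1 of the Flk1-positive or WT arrays, whichever it was, ended the calls of Rpl27a and Rpl14 against WT, with adjusted p between 0.0720 and 0.123 for Rpl27a and between 0.0942 and 0.117 for Rpl14. Against KO, Rpl27a lost its call without any 1 of the 6 arrays (adjusted p between 0.0523 and 0.164), and Rpl14 without Flk1-positive replicate 1 or 2 (adjusted p = 0.0680 and 0.0780).

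**Figure D2:**
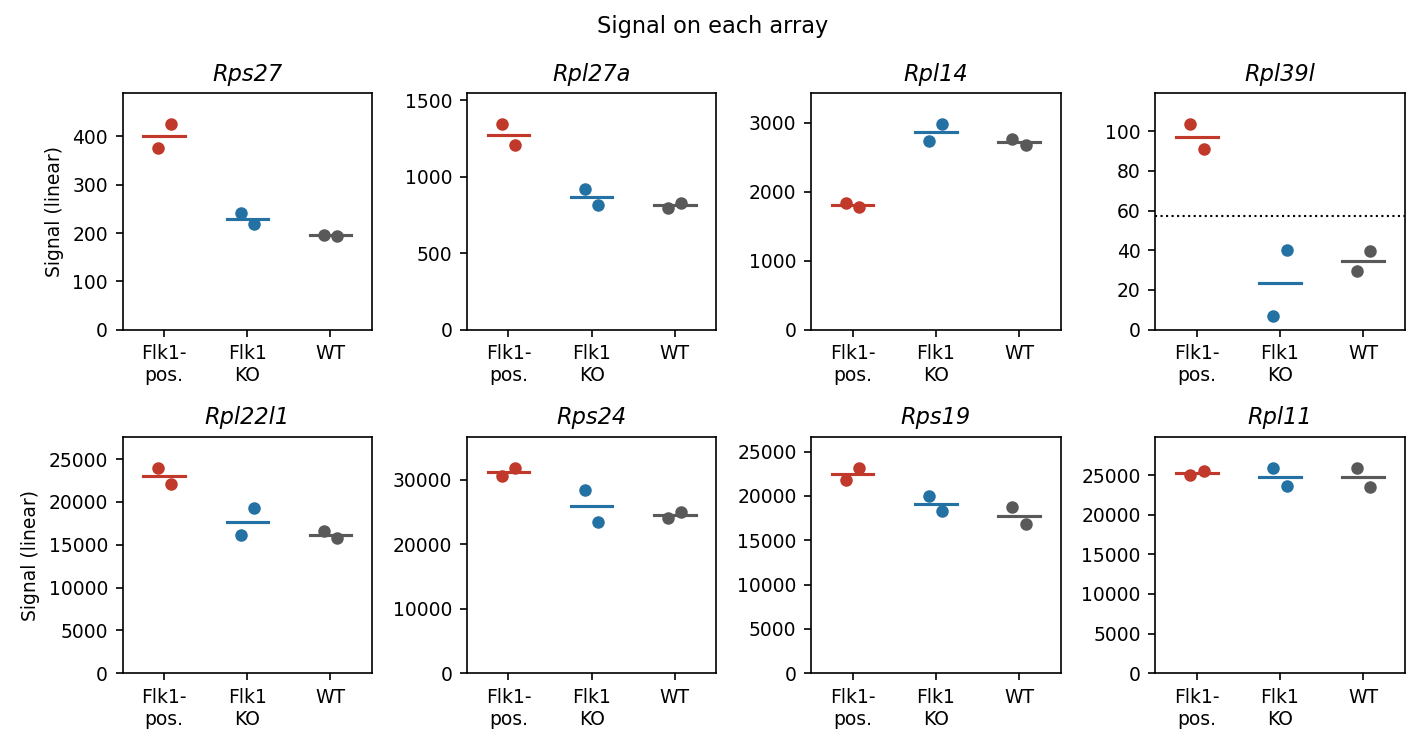
Linear signal of 8 members on each array, by group, with points for arrays and a bar at the group mean of 2; the dotted line marks the background signal of 57.4. Flk1-positive arrays stand apart from the other 4 for Rps27, Rpl27a, Rpl14, Rpl39l, Rpl22l1, Rps24 and Rps19, while Rpl11 overlaps between groups.

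The called members had dim probe sets of their own and brighter probe sets that they share. Mean signals were 275 for Rps27, 984 for Rpl27a and 2462 for Rpl14. Each of these genes is also listed, together with other genes, by brighter probe sets, which the rule leaves out and which can bind transcripts of several genes. Whether the probe sets that list a single gene bind other transcripts as well was not tested. The brightest shared probe set had a mean of 18022 for Rps27, and its difference against WT was 0.33 ± 0.13 (adjusted p = 0.118). For Rpl27a it had a mean of 29702 and a difference of 0.16 ± 0.14 (adjusted p = 0.473). For Rpl14 the mean was 26983 and the difference 0.11 ± 0.13 (adjusted p = 0.575), opposite in sign to its own probe set. None of the 3 shared probe sets was called against KO either (adjusted p = 0.212, 0.733 and 0.622 in the order above). In all, 106 tested probe sets list a ribosomal protein gene with other genes, and 4 of them were called against WT (3.77%), where 26.1% of all probe sets were called.

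No member with a bright probe set was called in the fit above, but alternatives called some. With a variance prior that follows intensity, 12 members were called against WT, 11 of them higher, beside 39.8% of all genes; Rpl10a, Rpl19, Rpl22l1, Rpl35, Rplp2, Rps10, Rps19, Rps24 and Rps28 were the bright ones. Rpl22l1 was also called under 4 further settings, which use the same Flk1-positive and WT arrays. Among the 35 members with a mean signal of at least 10000, differences against WT ran from -0.048 to 0.51, and 34 were positive (97.1%). Both Flk1-positive arrays stood above both WT arrays for 28 (80%) and below for 1. Of the 267 other genes with such signals, 53.9% were positive, 46.1% had Flk1-positive arrays above WT arrays and 35.2% below. Over all 45 members, 32 had Flk1-positive arrays above WT arrays (71.1%) and 3 below, against 30.5% and 42.1% of all genes. Most members also moved the same way between replicate arrays, so these counts are not separate observations. The SD of the members' median between replicate arrays was 0.088, beside their median difference of 0.14 against WT. The members' shift above WT depended on scaling. After quantile normalization 24 of 45 members were positive, and the median was 0.028. Flk1-positive arrays were then above WT arrays for 15 (33.3%) and below for 12 (26.7%), against 31.2% and 41.5% of all genes. That step gives every array the same set of values. Most members lay among the highest signals, where it can take out a shift they share, so it cannot tell whether there was one. Centring each array on its median left 40 positive and a median of 0.19. The number of members called stayed at 3 under both, beside 31% and 28.8% of all genes.

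Rpl22l1 had the largest difference among the bright members. Its product, a paralog of RPL22, can take the place of RPL22 in the large subunit and also binds RNA. Signals were 23995 and 22078 in Flk1-positive cells, 16116 and 19302 in KO embryos and 16600 and 15790 in WT embryos. The Flk1-positive arrays were the highest 2 of the 6. The difference of 0.51 ± 0.15 against WT missed the threshold (adjusted p = 0.0579), and that of 0.38 ± 0.15 against KO did as well (adjusted p = 0.111). The difference against WT passed with a larger pseudocount (limma adjusted p = 0.0216), a stricter filter (0.0237) and without the KO arrays (0.0453). It also passed where each gene was read as the median over its probe sets (0.0404). Rpl22l1 has a single probe set, so its own difference stayed at 0.51 in that setting. Its partner Rpl22 read 28556 and 29895 in Flk1-positive cells, 27481 and 28105 in KO embryos and 28117 and 25425 in WT embryos, a difference of 0.13 ± 0.13 against WT (adjusted p = 0.512).

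Rps24 and Rps19 came next to Rpl22l1 among small subunit genes with bright probe sets, and both genes are mutated in Diamond-Blackfan anaemia. The Rps24 probe set read 30580 and 31876 in Flk1-positive cells, 28507 and 23469 in KO embryos and 24120 and 25039 in WT embryos, 0.35 ± 0.15 against WT (adjusted p = 0.149). For Rps19 the signals were 21821 and 23163 in Flk1-positive cells, 20012 and 18255 in KO embryos and 18696 and 16772 in WT embryos, 0.34 ± 0.14 against WT (adjusted p = 0.125). In both genes the Flk1-positive arrays were above the WT arrays, yet the differences did not pass the test. Rpl11, whose free protein binds the p53 inhibitor MDM2 when ribosome assembly fails, read 24986 and 25540 in Flk1-positive cells, 25898 and 23663 in KO embryos and 25924 and 23541 in WT embryos, and the groups overlapped. Of the 11 Diamond-Blackfan genes tested, 1 (Rps27, 9.09%) was called against WT, where 30.6% of all genes were, and the same gene against KO, where 32.8% were. Their median difference was 0.22 against WT.

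**Figure D3:**
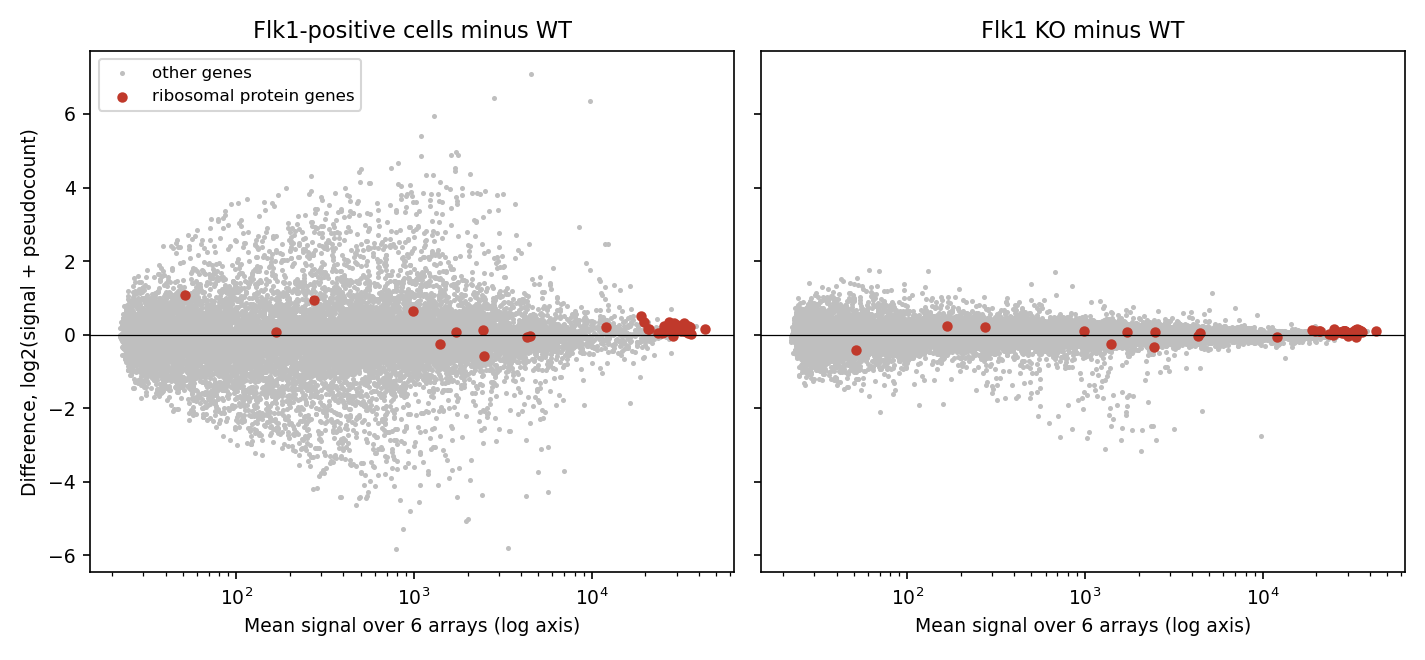
Each point is 1 gene by its brightest probe set, with mean signal over 6 arrays on a log axis and the log2 difference of Flk1-positive cells from WT (left) and Flk1 KO from WT (right) on the vertical axis; the 45 members are red. Members at mean signals of at least 10000 lie between -0.048 and 0.51 in the left panel and between -0.071 and 0.15 in the right.

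Other genes with bright probe sets did include called differences. Of 267 other genes with a mean signal of at least 10000, 23 were called higher and 15 lower against WT (14.2%), with differences from -1.87 to 2.47. These genes were not matched to the members in signal, and whether the array response flattens at the highest signals was not tested. Rpsa and Fau encode small subunit proteins whose symbols the rule does not take. Rpsa read 32531 and 32932 in Flk1-positive cells, 30576 and 27032 in KO embryos and 28993 and 28345 in WT embryos. Fau read 20861 and 20872 in Flk1-positive cells, 20816 and 16985 in KO embryos and 17439 and 15932 in WT embryos. Neither was called. Rack1 and the stalk gene Rplp1 were not analysed here.

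Of the 4 paralogs tested, none was called against WT and 1 against KO. Rpl39l, a paralog of the tunnel protein gene Rpl39 best known from the testis, read 103 and 91.1 in Flk1-positive cells, 7.0 and 39.9 in KO embryos and 29.5 and 39.6 in WT embryos. The Flk1-positive arrays were above the background signal of 57.4, and the 4 embryo arrays were below it, so that only a bound can be given: it was at least 1.69-fold higher in Flk1-positive cells. The fit passed the threshold against KO (adjusted p = 0.0317) and missed it against WT (adjusted p = 0.0847). Its mean over all arrays, 51.8, is below background too, and the call against KO was lost with a smaller pseudocount (adjusted p = 0.0689). It was also lost without any 1 Flk1-positive or WT array (adjusted p between 0.0602 and 0.112), while without either KO array Rpl39l was called against WT (adjusted p = 0.0153).

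Rpl39 itself read 203 and 126 in Flk1-positive cells, 205 and 162 in KO embryos and 164 and 142 in WT embryos, and the groups overlapped. RPS27L, which p53 induces, is the paralog of RPS27. The Rps27l probe set read 13157 and 13568 in Flk1-positive cells, 10886 and 11215 in KO embryos and 12617 and 10672 in WT embryos, 0.20 ± 0.14 against WT (adjusted p = 0.344). Thus Rps27 was called and Rps27l was not; the difference between the pair was not tested. Rpl7l1, a ribosome assembly factor related to RPL7, lay between 4233 and 4749 on all 6 arrays. Its partner Rpl7 lay between 27201 and 31052, and neither was called in any comparison. The striated muscle paralog Rpl3l read between 4.93 and 29.0 on the 6 arrays, below background on each.

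The stalk proteins recruit elongation factors to the large subunit. Rplp0, whose product anchors the stalk, read 35061 and 37182 in Flk1-positive cells, 35923 and 27603 in KO embryos and 33464 and 31957 in WT embryos. Rplp2 read 29614 and 33831 in Flk1-positive cells, 30309 and 25571 in KO embryos and 27070 and 24624 in WT embryos. Flk1-positive arrays were above WT arrays for both genes but overlapped the KO arrays, and neither gene was called.

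On the deposited scale 5 of the 45 members had negative differences against WT, as did 8448 of all 14947 genes; after quantile normalization 24 were positive, and 12 had Flk1-positive arrays below WT arrays. Besides Rpl14, the 4 negative differences against WT were -0.24 for Rpl12, a protein at the stalk base, -0.074 for Rpl37, -0.048 for Rps18 and -0.046 for Rpl7l1, and none was called. Rpl12 read 1189 and 1463 in Flk1-positive cells, 1188 and 1463 in KO embryos and 1521 and 1614 in WT embryos, so the WT arrays were the highest 2. Brighter probe sets did not share these signs. The brightest shared probe sets of Rpl12 and Rpl37, with means of 35122 and 28357, had differences of 0.14 and 0.19 against WT. Further Rps18 probe sets with means of 20941 and 18952 had 0.28 and 0.31, while its dimmer ones were negative. The other Rpl7l1 probe sets were negative too. Against KO, the largest negative differences after Rpl14 were -0.16 for Rpl39, -0.10 for Rpl7l1, -0.085 for Rps18 and -0.074 for Rps4x, a small subunit gene on the X chromosome, and none of the 4 was called. The brightest shared probe set of Rpl39, with a mean of 31744, had 0.33 against KO. The further bright Rps18 probe sets had 0.16 and 0.13, and the other Rpl7l1 probe sets were negative.

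Probe sets of 1 gene did not always move together. The 47 members have 102 probe sets, and 97 of these were tested. Of the 67 with mean signals of at least 10000, none was called in any comparison, and their differences against WT had an SD of 0.10. The shares of all tested probe sets called were 26.1% against WT, 0.0799% between KO and WT and 29.2% for Flk1-positive cells against KO. Of the 30 below that limit, 2 were called higher and 4 lower against WT, with an SD of 0.48. The 3 further calls, named here after their values were seen, were on dimmer probe sets of genes whose brightest probe set was not called. A second probe set of Rpl22 read 2115 and 2274 in Flk1-positive cells, 4591 and 4757 in KO embryos and 4376 and 4238 in WT embryos, -0.97 ± 0.12 against WT (adjusted p = 0.00453). One of Rps24 read 632 and 669 in Flk1-positive cells, 1001 and 1262 in KO embryos and 1404 and 1419 in WT embryos, -1.09 ± 0.16 against WT (adjusted p = 0.00641). One of Rps10 read 177 and 178 in Flk1-positive cells, 274 and 263 in KO embryos and 300 and 277 in WT embryos, -0.64 ± 0.12 against WT (adjusted p = 0.0170). In all 3 the Flk1-positive arrays were the lowest 2, whereas the brightest probe sets of the same genes had differences of 0.13, 0.35 and 0.31. Which transcripts these dimmer probe sets read was not tested.

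**Figure D4:**
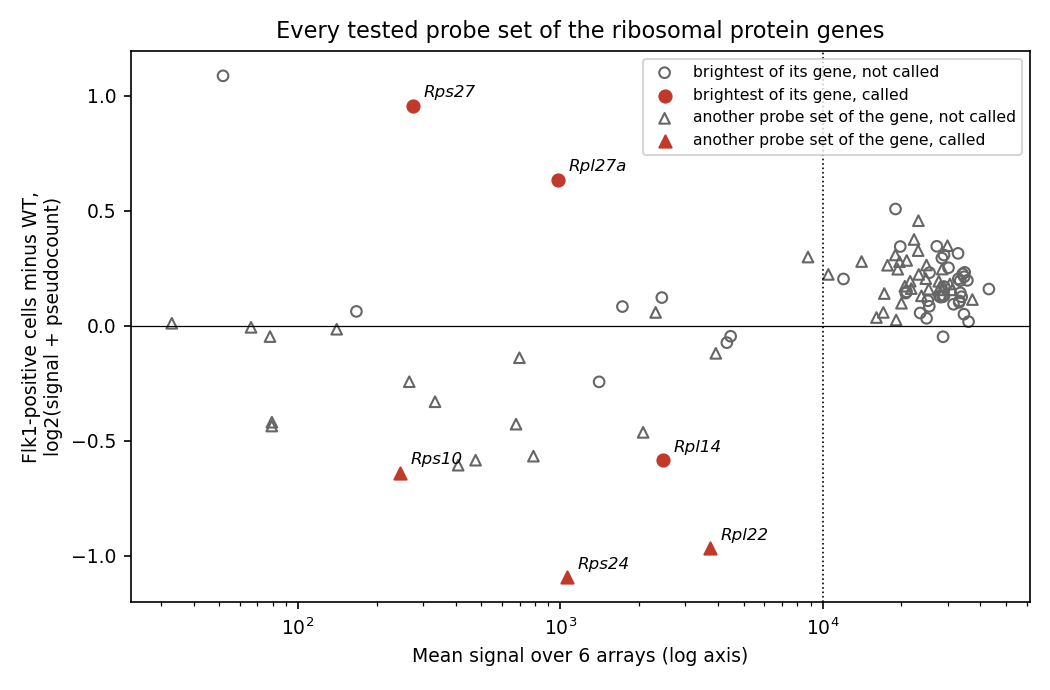
Each of the 97 tested member probe sets, with mean signal on a log axis and the log2 difference of Flk1-positive cells from WT; circles are the brightest of a gene, triangles its other probe sets, and red marks an adjusted p under 0.05. All 6 red points lie left of the dotted line at 10000, and 67 open points lie right of it between -0.048 and 0.51.

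Loss of Flk1 left the ribosomal protein transcripts without a called difference. Between KO and WT embryos, limma called 0 of the 45 members, while 0.154% of all genes were called. At an unadjusted p under 0.05 it also gave 0 members. Under each alternative setting tried the count was 0 too, beside 0% to 0.609% of all genes. With so few calls among all genes, a count of 0 does not set the members apart. All 45 differences lay within 0.5 on the log2 scale, as did 91.7% of those of all genes, and they ran from -0.34 to 0.22 apart from Rpl39l, which was below background in both groups. KO arrays were above WT arrays for 8 members (17.8%, against 19.1% of all genes) and below for 2 (4.44%, against 18.2%). After median centring, KO arrays were above WT arrays for 37 members (82.2%), against 34.9% of all genes. On the deposited scale the median was 0.087, beside 0.0017 over all genes.

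The largest values in this comparison belonged to dim probe sets and passed no test. They were 0.22 for Rpl39 and 0.21 for Rps27 above, and -0.34 for Rps6 and -0.24 for Rpl12 below. These genes also have brighter shared probe sets, whose values in this comparison are not given here. RPS6 is the small subunit protein that the S6 kinases phosphorylate. Its probe set read 2717 and 2816 in Flk1-positive cells, 2008 and 1986 in KO embryos and 2824 and 2283 in WT embryos, and both KO arrays were the lowest of the 6. Among brighter members, Rps3, Rps14 and Rps2, all of the small subunit, had values of 0.15, 0.15 and 0.14. The members' median of 0.087 is within the spread between replicates. KO replicate 1 was above KO replicate 2 for 37 of 45 members (82.2%, against 52.8% of all genes), with a median difference of 0.16. WT replicate 1 was above WT replicate 2 for 37 (82.2%, against 52% of all genes), with a median of 0.071. Flk1-positive replicate 1 was above replicate 2 for 12 (26.7%, against 52.5% of all genes), with a median of -0.051. Without KO replicate 1 the median between KO and WT was 0.0030, and without KO replicate 2 it was 0.17. Median centring gave 0.19 for the members and 0.10 for all genes.

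Set against KO embryos, Flk1-positive cells also showed few calls. Of the 45 members, 4 were called (8.89%), against 32.8% of all genes. Rpl39l, Rps27 and Rpl27a were higher (13.2% of all genes were) and Rpl14 was lower (19.6% of all genes were). Without Flk1-positive replicate 1 the count was 1, without replicate 2 it was 0, without either WT array 2 and without either KO array 3. This comparison uses the same Flk1-positive arrays as that with WT, so the calls are not a second, separate observation. The median was 0.067, beside -0.080 over all genes, and quantile normalization turned it to -0.011. Flk1-positive arrays were above KO arrays for 16 members (35.6%, against 29.3% of all genes) and below for 2 (4.44%, against 40.2%). After quantile normalization they were above for 15 and below for 15 (33.3% each). Rps6 had the largest difference not called, 0.47 ± 0.15 (adjusted p = 0.0710). Its own probe set had a mean of 2439. The brightest of 9 shared probe sets that list Rps6 had a mean of 35308 and a difference of 0.14 against KO (limma adjusted p = 0.54). The 35 bright members ran from -0.085 to 0.38 with 0 calls, while 28 of the 267 other bright genes were higher and 16 lower (16.5%).

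Other genes of the translation machinery were taken from pathway lists. Of 17 translation factors with terminal oligopyrimidine mRNAs, 1 was called against WT (5.88%, where 30.6% of all genes were called). That gene was Eif4b, which stimulates the helicase of initiation, at 5643 and 5870 in Flk1-positive cells, 9169 and 9072 in KO embryos and 7786 and 8027 in WT embryos, -0.46 ± 0.12 against WT (adjusted p = 0.0438). Without any 1 Flk1-positive or WT array this call was lost, in fits that called fewer of all genes as well. Against KO, Eif4b and the histone chaperone gene Nap1l1 were lower, at -0.66 and -0.44 (11.8%, where 19.6% of all genes were called lower). With any 1 array left out fewer of the list were called, and fewer of all genes. No gene was called in any comparison among 21 initiation and elongation factors without such tracts or 18 aminoacyl-tRNA synthetases. At an unadjusted p under 0.05, limma gave 0 factors against WT and KO, and 0 synthetases against WT but 2 against KO. Other settings called up to 4 factors and up to 4 synthetases against KO.

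Ribosome biogenesis factors, which make and process ribosomal RNA, had 5 of 49 called against WT, and all 5 were lower in Flk1-positive cells (10.2%, where 18.1% of all genes were called lower). The largest falls were those of Polr1c, a subunit shared by RNA polymerases I and III, at 1991 and 1898 in Flk1-positive cells, 5229 and 4002 in KO embryos and 3818 and 3663 in WT embryos, -0.94 ± 0.17 against WT (adjusted p = 0.0134), and of Taf1b, of the polymerase I selectivity factor, at -0.69 ± 0.14 (adjusted p = 0.0202). Without any 1 Flk1-positive or WT array all 5 calls against WT were lost, in fits that called fewer of all genes as well. Against KO, 5 of 49 were lower as well (10.2%, against 19.6% of all genes). With any 1 array left out fewer of the 49 were called, and fewer of all genes. Mitochondrial ribosomal proteins, which serve the separate ribosomes of mitochondria, had 7 of 76 called against WT, all higher (9.21%, where 12.5% of all genes were called higher). Mrps6 read 3268 and 3417 in Flk1-positive cells, 1891 and 1708 in KO embryos and 1993 and 1575 in WT embryos, 0.91 ± 0.16 against WT (adjusted p = 0.0134). Mrps26 rose by 0.80 ± 0.15 (adjusted p = 0.0160). Without any 1 Flk1-positive or WT array most of these calls were lost, in fits that called fewer of all genes as well. Against KO, 9 were higher and 2 lower (13.2% and 19.6% of all genes were). With any 1 array left out fewer of the 76 were called, and fewer of all genes. The medians against WT were -0.086 for biogenesis and 0.14 for mitochondrial ribosomal proteins.

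**Figure D5:**
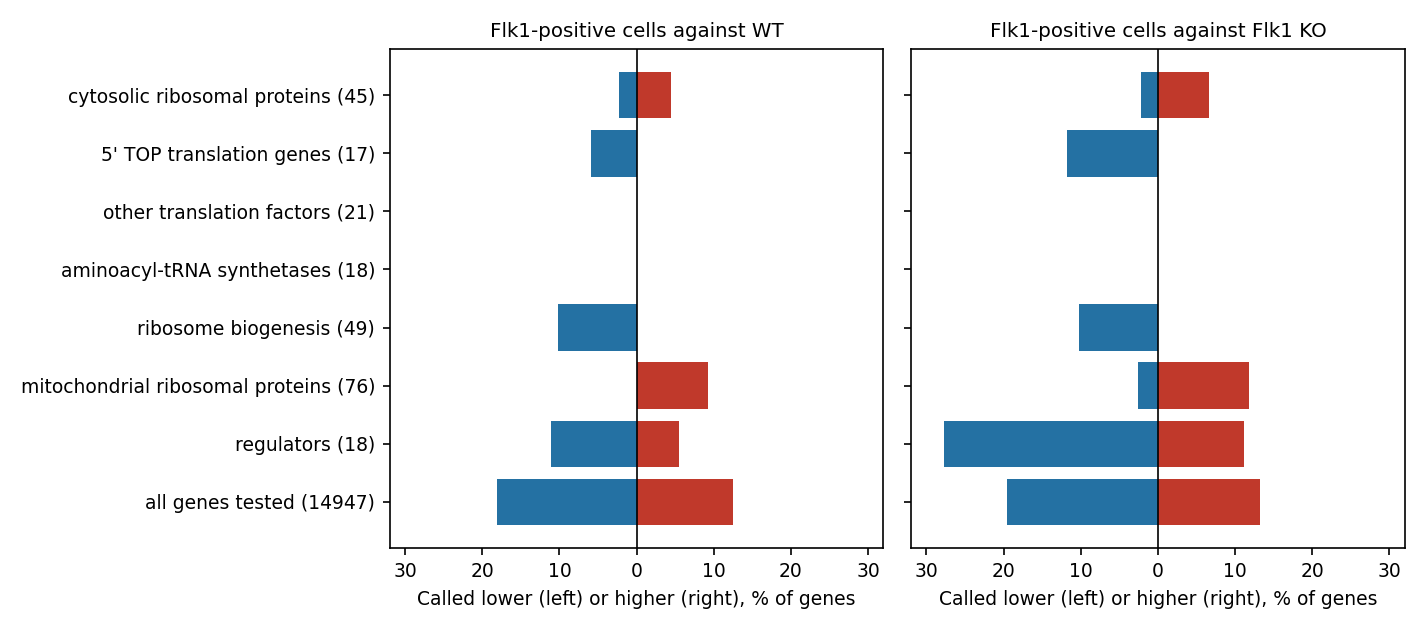
Percent of the tested genes of each list called higher (right) or lower (left) in Flk1-positive cells, against WT (left panel) and Flk1 KO (right panel), with the number tested in parentheses. The ribosomal proteins have 6.67% and 8.89% called in all, against 30.6% and 32.8% of all genes.

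The MYC factors, which drive transcription of ribosome genes, differed strongly between the groups. Myc read 2324 and 2449 in Flk1-positive cells, 1091 and 1036 in KO embryos and 1026 and 981 in WT embryos, 1.23 ± 0.12 against WT (adjusted p = 0.00205). Mycn read 2036 and 2132 in Flk1-positive cells, 6825 and 6503 in KO embryos and 6202 and 5955 in WT embryos, -1.53 ± 0.12 against WT (adjusted p = 0.00104). Mycl read 9.75 and 12.0 in Flk1-positive cells, below background, 762 and 849 in KO embryos and 746 and 598 in WT embryos, at least 11.6-fold lower than in WT. All 3 had arrays of Flk1-positive cells apart from the other 4. In the list of 18 regulators of ribosome synthesis these were the 3 calls against WT (16.7%, against 30.6% of all genes), and against KO 2 were higher and 5 lower (38.9%, against 32.8% of all genes). With an array left out, no fewer regulators were called against WT. Against KO fewer regulators were called, in fits that called fewer of all genes as well. No regulator was called between KO and WT.

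The groups differ in cell types. Summed signals of 12 endothelial markers were 49520 and 49717 in Flk1-positive cells, 1052 and 994 in KO embryos and 3490 and 3345 in WT embryos, and all 12 were called higher against WT. Of these 12, 9 were below background in KO embryos and 1 in WT embryos. Summed signals of 9 primitive erythroid markers were 44161 and 45697 in Flk1-positive cells, 422 and 293 in KO embryos and 1224 and 636 in WT embryos. Of these 9, 7 were below background in KO embryos, 4 in WT embryos and 1 in Flk1-positive cells. The brightest probe sets weigh most in such sums, so ratios of sums are not fold changes of a cell type. Neuroectoderm markers summed to 496 and 417 in Flk1-positive cells, 9583 and 9932 in KO embryos and 10531 and 10345 in WT embryos, and all 8 were lower against WT. Cardiomyocyte markers summed to 1893 and 1698 in Flk1-positive cells, 41311 and 28247 in KO embryos and 20666 and 21045 in WT embryos. All 8 cardiomyocyte and all 8 endoderm markers, and 6 of 7 somite markers, were lower against WT. In Flk1-positive cells 5 neuroectoderm, 2 cardiomyocyte, 3 endoderm and 2 somite markers were below background. Of 3 pairs of RNA quality probe sets, 2 moved with the groups, in opposite directions. The 3′ minus 5′ difference of Tfrc was 1.26 and 1.35 on the log2 scale in Flk1-positive cells and between 0.94 and 1.05 on the other 4 arrays. That of Actb went the other way, at 0.26 and 0.29 in Flk1-positive cells and between 0.47 and 0.58 on the other 4. That of Gapdh overlapped, at -0.32 and -0.36 in Flk1-positive cells and between -0.37 and -0.32 elsewhere. The part of cell makeup and RNA quality in the ribosomal protein differences was not tested.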

How the data were processed

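Affymetrix arrays of 6 RNA samples gave a linear signal for 45101 probe sets each, as deposited by the authors; the design text names GeneSpring, and what summarised and scaled the signal is not stated there or in the labels. The trimmed mean of every array was 500, with 2% left out at each end. No scanner intensities were used here, and the 2 arrays per group limit the precision.

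Signals were transformed as log2(signal + 21.6), the 25th percentile of all values being the pseudocount, on the deposited scale. After 64 control probe sets and those with a mean log2 value under the 25th percentile were left out, 33778 probe sets of 14947 genes were fitted with limma 3.58.1 in R 4.3.3 (lmFit, eBayes, group as the only term, two-sided, degrees of freedom 3 residual and 2.49 prior, Benjamini-Hochberg over all probe sets, threshold 0.05). The fit was tested on simulated data. Each gene was read from the probe set of highest mean signal among those with 1 symbol in the platform annotation (34958 probe sets had 1 symbol, 932 several and 9211 none). All 47 members matched the RefSeq gene table by gene ID, and 42 matched the RefSeq promoter table (GRCm38.p6). Background was set at the 95th percentile over 80 probe sets of olfactory or vomeronasal receptors. Plots used Python 3.11.15 and matplotlib 3.10.9.

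The members and lists were chosen with earlier results of these data known. Named genes were called members whose arrays did not overlap, up to 10 in each direction, filled to the 5 largest differences; the paralogs and partners; the stalk genes; Rpsa and Fau; MYC genes; and of each other list the 2 called genes that rose most and the 2 that fell most. Rps19, Rps10, Rpl11, Rpl35 and Rpl7a were added after their values or sequences were seen. Alternatives covered the pseudocount, filter, normalization, variance prior, probe set, arrays and replicate block.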

Additional observations from a re-analysis of the deposited data

How the results depend on the processing

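The number of members called between KO and WT was 0 under every alternative run. The share of all genes called was then between 0% and 0.609%, so this count does not set the members apart. Against WT, 3 members were called in Flk1-positive cells, beside 30.6% of all genes. The count was 5 with the median of all values as pseudocount (36.7% of all genes). With only the 2 groups compared in the fit it was 5 (31.1% of all genes). Plain probe sets gave 5 (2 higher, 3 lower), beside 30.4% of all genes. An intensity trend and robust prior gave 12 (11 higher, 1 lower), beside 39.8% of all genes. Leaving out 1 array gave 1 to 5, and only Rps27 was called in every such fit; the lone array of a group was then assumed to vary like the others. Against KO, 4 members were called, beside 32.8% of all genes. The count was 9 with the intensity trend (8 higher, 1 lower), beside 41.9% of all genes. It was 2 with only the 2 groups compared, beside 26.1% of all genes. The trend fit added Rpl22l1 against WT at an adjusted p of 0.00215, Rpl10a at 0.00808, Rps19 at 0.0103 and Rps24 at 0.0161. The median over members moved to 0.028 against WT with quantile normalization, to 0.19 between KO and WT with median centring, and to 0.16 against KO without Flk1 KO replicate 1. With 1 array left out the medians ranged between 0.11 and 0.19 against WT, 0.0030 and 0.17 between KO and WT, and 0.0073 and 0.16 against KO. Rps24 reversed with its plain probe set, to -1.09 against WT and -0.77 against KO. With the replicate block 3, 0 and 3 members were called in the comparisons with WT, between KO and WT, and with KO. The shares of all genes were 26.9%, 0% and 29.1%. Rpl27a lost its call against KO (limma adjusted p = 0.0568). The correlations of same-numbered deviations were 0.0290, 0.00801 and 0.0226, and the main fit did not pair same-numbered arrays. With 2 arrays per group, these values cannot tell whether same-numbered arrays were handled together. The cause of these changes was not tested. Signals have no counts behind them, and members below or near background, such as Rpl39l, are limited by it.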
